A study of Mus musculus with 18 samples.

Results

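The BCL2 family was followed through 10 of its genes in 4T1 mammary tumors: the pro-survival genes Bcl2, Bcl2l1 (BCL-XL) and Mcl1, the BH3-only genes Bcl2l11 (BIM), Bbc3 (PUMA), Bmf, Pmaip1 (NOXA) and Bad, and the effector genes Bax and Bak1. The members were taken by gene identity, as the rows of the count tables whose Entrez identifier carries 1 of these symbols. They are 10 of the 22792 genes counted, and all 10 were among the 15282 genes with enough counts to be tested. 4T1 is a mammary carcinoma line from a Balb/c mouse that serves as a model of triple-negative breast cancer. Female Balb/c mice, 8 weeks old, received 300000 cells in the mammary fat pad, were treated from day 7 and were sampled on day 21. Tumors came from mice given vehicle (Vehicle, n = 5), the PI3K inhibitor CLR457 (PI3Ki, n = 4), the SHP2 inhibitor SHP099 (SHP2i, n = 4) or both inhibitors (Combo, n = 5), and all 18 grew from the same cell line in the same strain. RNA was sequenced from whole tumors, so the host's immune, vascular and stromal cells contribute to each value, and fewer cells of a type and less RNA per cell cannot be told apart.

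Proteins of the BCL2 family decide whether the outer membrane of the mitochondrion is breached, the step that releases cytochrome c and starts the caspases of intrinsic apoptosis. BAX and BAK form the pores, the pro-survival proteins BCL2, BCL-XL and MCL1 hold them and the BH3-only proteins in check, and the BH3-only proteins carry stress signals to both. BIM and BMF bind all the main pro-survival proteins, NOXA binds chiefly MCL1, BAD binds BCL2 and BCL-XL, and PUMA binds all of them. ERK signaling is known to mark BIM for degradation and PI3K-AKT signaling to phosphorylate BAD and to keep the FOXO factors, which can transcribe Bcl2l11, Bbc3 and Bmf, out of the nucleus. PUMA, NOXA and BAX are also encoded by classical p53 target genes. Much of this control acts on the proteins, which RNA counts do not measure.

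Because FOXO factors bind the forkhead core GTAAACA, the start-site windows of the family were searched for it on both strands (TGTTTAC on the other). The windows were RefSeq promoters (GRCm38.p6), 250 bases before to 50 after a start site, and 9 of the 10 genes matched, with 17 windows. The core lay in 2 of the 17, against 1199 of 32851 windows of all genes, or 3.65%. The first 250 bases of the windows of Bcl2l11 and Bmf, the BH3-only genes that were higher in Combo, are shown with the match in Bbc3, and capitals mark the core. Bcl2l11 lies at chr2:128126038-128162547 on the plus strand and its bases are chr2:128125788-128126037. Bmf lies at chr2:118528757-118549686 on the minus strand and its bases are chr2:118549687-118549936. The 27 bases of Bbc3 (gene at chr7:16308398-16318334, plus strand) are chr7:16310084-16310110.
Bcl2l11: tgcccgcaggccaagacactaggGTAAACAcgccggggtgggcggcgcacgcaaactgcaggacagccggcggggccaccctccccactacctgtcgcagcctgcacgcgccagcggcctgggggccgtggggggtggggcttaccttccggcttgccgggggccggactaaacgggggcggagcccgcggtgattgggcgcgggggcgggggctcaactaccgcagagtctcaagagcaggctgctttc
Bmf: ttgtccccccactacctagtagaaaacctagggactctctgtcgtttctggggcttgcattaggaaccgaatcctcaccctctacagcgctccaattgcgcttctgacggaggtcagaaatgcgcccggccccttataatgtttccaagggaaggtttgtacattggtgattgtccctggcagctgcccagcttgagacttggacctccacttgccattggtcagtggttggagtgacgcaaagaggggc
Bbc3: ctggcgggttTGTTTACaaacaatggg
In the Bcl2l11 sequence the core occupied bases 24 to 30, with 220 bases between it and the start site, and the window's printed part was 72% G and C. No core lay in the 3 windows of Bmf, whose printed bases were 54% G and C. In Bbc3 the core stood on the minus strand of 1 of the 3 windows, at an internal start site. A match is a run of letters and no measure of binding.

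Library totals were 21.2 to 26.6 M counts. Levels are CPM, counts per M counts after TMM scaling, and a gene is called when edgeR's quasi-likelihood test gives an adjusted p below 0.05, with the Benjamini-Hochberg adjustment over all 15282 genes. Where genes are compared with each other, levels are per kb of exon. Per kb, the Vehicle tumors held most Mcl1 (91.1 ± 2.72 CPM per kb, SD, n = 5), then Bax (48.6 ± 7.41), Bak1 (42.0 ± 3.59), Bcl2l1 (22.8 ± 1.03), Bad (14.4 ± 2.41), Bcl2l11 (7.65 ± 1.40), Bcl2 (6.78 ± 0.850) and Bbc3 (4.34 ± 0.999). Pmaip1 (2.71 ± 0.144) and Bmf (2.66 ± 0.701) were the lowest per kb and their values overlapped. Raw counts behind a single value ran from 39 for Pmaip1 in 1 Combo tumor to 10944 for Mcl1. Some tumors stood apart in other cell types' markers. PI3Ki replicate 2 had a summed level of 3529 CPM over the neutrophil markers, against 777 to 1098 CPM in the other PI3Ki tumors. All 16 of 16 skeletal muscle markers were higher in PI3Ki than in Vehicle, with summed levels of 1064 to 2423 CPM against 105 to 212 CPM. Combo replicates 4 and 5 had the lowest summed levels of all tumors for neutrophil markers (451 and 418 CPM), macrophage markers (555 and 492 CPM) and cycling cell markers (1115 and 880 CPM). In Combo as a group, 11 of 12 endothelial markers were lower, with summed levels of 416 to 509 CPM against 722 to 881 CPM in Vehicle. Of 10 fibroblast markers, 4 were lower in Combo and 2 others higher. The list of 14 heat shock and immediate early genes had 8 lower in Combo and 1 higher. Its summed levels were 622 to 983 CPM in Combo against 847 to 1298 CPM in Vehicle. Tissue handling and treatment cannot be told apart as sources of this difference. The part of these marker lists in the Combo differences was not tested. The 10 carcinoma epithelium markers were all detected in every group, and 1 was higher and 1 lower in Combo than in Vehicle. Their summed levels were 802 to 1276 CPM in Vehicle (median 1157) and 717 to 1088 CPM in Combo (median 766). They were 969 to 1404 CPM in PI3Ki and 870 to 1199 CPM in SHP2i.

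**Figure D1:**
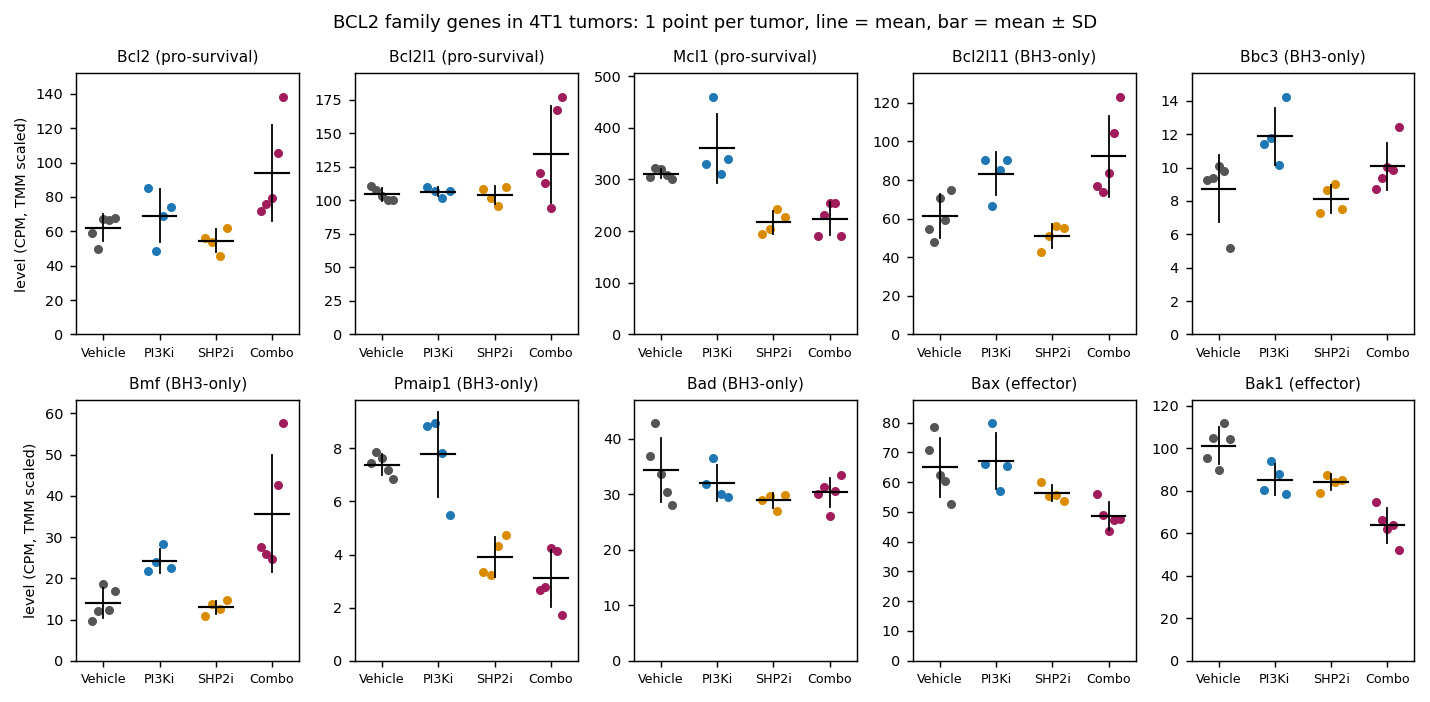
Level of each BCL2 family gene in CPM (TMM scaled, each axis from 0) in the 4 treatment groups, with 1 point per tumor, the group mean as a line and ± 1 SD as a bar. Mcl1 and Pmaip1 sit lower in the SHP2i and Combo tumors than in every Vehicle tumor, and Bmf sits higher in the PI3Ki and Combo tumors.

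Combined inhibition was the treatment with the most calls in the family. Against Vehicle, 4 of the 10 genes were higher in Combo (Bcl2, Bcl2l1, Bcl2l11 and Bmf) and 4 were lower (Mcl1, Pmaip1, Bax and Bak1), while Bbc3 and Bad did not pass. Of all genes tested, 43.6% were called in this comparison, 23.9% higher and 19.7% lower. Under SHP2i 2 genes were lower, Mcl1 and Pmaip1, and none was higher, where 11.6% of all genes were called and 6.54% were lower. No member was called under PI3Ki, where 5.11% of all genes were. At an unadjusted p under 0.05 there were 4 in that comparison, Bmf, Bcl2l11 and Bbc3 with positive and Bak1 with negative differences, beside 2982 of the 15282 genes. The median log2 difference over the 10 genes was 0.11 for PI3Ki, -0.23 for SHP2i and 0.01 for Combo, beside 0.01, 0.02 and 0.02 for all genes tested. With the added limit of an absolute log2 fold change over 1, Bmf (higher) and Pmaip1 (lower) were called in Combo, where 10.9% of all genes were, and no member was called in PI3Ki (1.75%) or SHP2i (3.74%). Every tumor lay outside the Vehicle range on 1 side for 2 members in PI3Ki (Bbc3 and Bmf), 3 in SHP2i (Mcl1, Pmaip1 and Bak1) and 5 in Combo (Bcl2, Mcl1, Bmf, Pmaip1 and Bak1). Of all genes, 10.5%, 19.1% and 28.9% were separated in this way. For the other separations between sets of tumors described below, the share of all genes is not given.

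The Combo calls against Vehicle depended in part on the tumors that stood apart. Without Combo replicates 4 and 5, Bmf, Mcl1, Pmaip1, Bax and Bak1 remained called and Bcl2, Bcl2l1 and Bcl2l11 did not, where 5289 of 15404 genes were called. With the mean of the neutrophil markers as a covariate, Bmf, Pmaip1 and Bak1 remained and 2394 of all genes were called. With the mean of the macrophage markers as a covariate, no member and 1785 of all genes were called, against 6657 without a covariate. In these 2 fits the markers and the Combo group carry much of the same information and cannot be told apart.

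**Figure D2:**
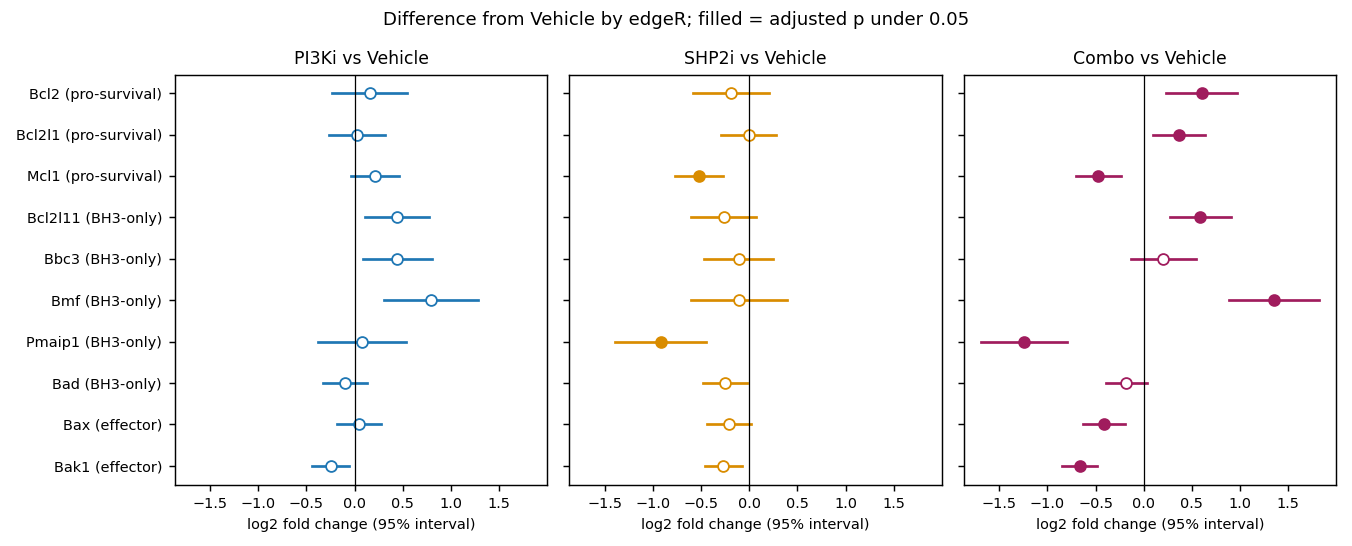
Log2 fold change against Vehicle (x axis) with its 95% interval for each gene (y axis), from edgeR over 18 tumors, in PI3Ki (left), SHP2i (middle) and Combo (right). Filled points passed an adjusted p of 0.05; there were 0 in PI3Ki, 2 in SHP2i and 8 in Combo.

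Among the pro-survival genes, Mcl1, which encodes a short-lived protein, was lower in both groups given the SHP2 inhibitor. Vehicle replicates 1 to 5 held 304, 321, 321, 309 and 301 CPM and PI3Ki replicates 1, 2, 3 and 5 held 331, 459.6, 311 and 339.8 CPM. SHP2i replicates 2 to 5 held 194, 205, 242 and 227 CPM and Combo replicates 1 to 5 held 190.3, 231, 255, 255 and 190.4 CPM. Every tumor given the SHP2 inhibitor, alone or combined, lay below every tumor that was not. The mean of 311 ± 9.28 CPM in Vehicle (SD, n = 5) stood against 217 ± 21.9 in SHP2i (n = 4), a log2 fold change of -0.52 (SE 0.12, adjusted p = 0.00896), and 224 ± 32.5 in Combo (n = 5), a log2 fold change of -0.47 (SE 0.11, adjusted p = 0.0025). Combo and SHP2i differed by 0.05 on the log2 scale, with a 95% interval of -0.20 to 0.29. The PI3Ki difference was 0.21 (95% interval -0.04 to 0.46, adjusted p = 0.35), and the single high PI3Ki value came from the tumor with the high neutrophil markers. Without that tumor the PI3Ki difference was 0.07.

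Macrophage markers were lower in both groups in which Mcl1 was lower, and neutrophil markers in Combo. Within SHP2i the tumors had the same order in Mcl1 and in macrophage markers. Replicates 2, 3, 5 and 4 held 194, 205, 227 and 242 CPM of Mcl1 beside 832, 877, 1346 and 1718 CPM. PI3Ki replicate 2 was the highest of all tumors in both, with 459.6 and 3898 CPM. Within Combo the tumors did not keep the same order. Replicates 5, 2 and 3 held 190.4, 231 and 255 CPM of Mcl1 beside 492, 1500 and 1614 CPM of macrophage markers. Replicate 4 held 255 CPM beside 555 CPM, and replicate 1 held 190.3 CPM beside 765 CPM. Endothelial and T and NK cell markers were lower in Combo as well. Of 13 macrophage and monocyte markers, 8 were lower in SHP2i and 11 in Combo, with summed levels of 2212 to 2905 CPM in Vehicle, 832 to 1718 CPM in SHP2i and 492 to 1614 CPM in Combo. Of 14 neutrophil markers tested, none was called in SHP2i and 9 were lower in Combo. The summed levels of that list were 645 to 847 CPM in Vehicle and 418 to 631 CPM in Combo, where Ly6g was at 0 in all tumors. With the mean of the macrophage markers as a covariate, the Mcl1 difference was -0.28 in SHP2i (adjusted p = 0.166) and -0.06 in Combo (adjusted p = 0.843). With the neutrophil covariate the Combo difference was -0.16 (adjusted p = 0.435), and with that of B and plasma cells the SHP2i difference was -0.44 (adjusted p = 0.0669). The part of these cells in the Mcl1 difference was not tested.

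Bcl2 stood highest in Combo. Vehicle tumors held 59.0, 49.7, 67.1, 66.5 and 68.0 CPM, PI3Ki tumors 85.5, 48.3, 68.7 and 73.9 CPM and SHP2i tumors 56.4, 53.9, 45.6 and 61.7 CPM. Combo tumors held 71.6, 75.7, 79.7, 106 and 138 CPM, all above the Vehicle and SHP2i tumors, and the highest PI3Ki tumor exceeded 3 of them. Against Vehicle the log2 fold change was 0.60 (SE 0.17, adjusted p = 0.0106), against SHP2i 0.79 (SE 0.19, adjusted p = 0.00728) and against PI3Ki 0.45 (SE 0.19, adjusted p = 0.0681). Combo replicates 4 and 5 were the highest. Without both of them the difference from Vehicle was 0.26 (adjusted p = 0.189) and that from SHP2i 0.46 (adjusted p = 0.077). With the neutrophil or the macrophage covariate the Combo difference from Vehicle became -0.0031 or -0.21. In neither single-inhibitor group was Bcl2 called, with 0.16 in PI3Ki (95% interval -0.23 to 0.54) and -0.19 in SHP2i (95% interval -0.58 to 0.20). Bcl2 overlaps an antisense gene, D630008O14Rik, so part of its count could belong there if strand was not used.

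Bcl2l1 was nearly level outside Combo. Its 13 values there ran from 95.5 to 111 CPM, and group means were 104 ± 4.72 (Vehicle, SD, n = 5), 106 ± 3.26 (PI3Ki, n = 4) and 104 ± 6.61 CPM (SHP2i, n = 4). Combo tumors held 120.0, 112, 94.2, 167 and 177 CPM, so that the third lay below every Vehicle tumor and the other 4 lay above. The log2 fold change from Vehicle was 0.36 (SE 0.13, adjusted p = 0.0304), and 0.04 (adjusted p = 0.723) without Combo replicates 4 and 5. The call was also lost when Vehicle replicate 3, 4 or 5 or either of those Combo tumors was left out alone, with differences of 0.24 to 0.47 and adjusted p up to 0.107 over all tumors left out in turn. The difference was 0.18 with the neutrophil (adjusted p = 0.565) and -0.31 with the macrophage covariate.

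Bmf, which was first described as a BH3-only protein held on the cytoskeleton, had the largest positive difference of the family. Vehicle tumors held 9.74, 12.1, 18.6, 12.4 and 17 CPM and SHP2i tumors 10.8, 13.7, 12.6 and 14.7 CPM. PI3Ki tumors held 21.8, 24.0, 28.4 and 22.5 CPM and Combo tumors 27.6, 25.9, 24.8, 42.5 and 57.6 CPM. Every tumor given the PI3K inhibitor lay above every tumor that was not. In Combo the mean was 35.7 ± 14.2 CPM (SD, n = 5) against 14.0 ± 3.68 in Vehicle, a log2 fold change of 1.35 (SE 0.22, adjusted p = 0.000145), and against SHP2i it was 1.46 (SE 0.24, adjusted p = 0.000649). Without Combo replicates 4 and 5 the difference from Vehicle was 0.88 (adjusted p = 0.00133), and with the macrophage covariate it was 0.58 (adjusted p = 0.305). In PI3Ki the difference was 0.79 (SE 0.23) and missed the threshold at an adjusted p of 0.0584. It passed in DESeq2 (adjusted p = 0.0191), in edgeR's likelihood ratio test (0.0226) and when only the PI3Ki and Vehicle groups were fitted (0.0312). It did not pass in limma voom, under the other filters, with scaling by the median of ratios or without scaling beyond the total count. Nor did it pass with the B and plasma cell or the skeletal muscle covariate. The muscle markers given above and the PI3Ki group cannot be told apart. Between Combo and PI3Ki the difference was 0.56 (95% interval 0.07 to 1.05, adjusted p = 0.0662).

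Bcl2l11, whose protein BIM is an activator of BAX and BAK, had a similar order of group means. Vehicle tumors held 54.6, 47.8, 70.8, 59.2 and 74.9 CPM and PI3Ki tumors 90.6, 66.8, 85.2 and 90.6 CPM. SHP2i tumors held 42.5, 50.9, 56.1 and 55.1 CPM and Combo tumors 76.7, 73.7, 83.5, 104 and 123 CPM. The Combo and Vehicle groups overlapped by 1 tumor on each side, and all Combo tumors lay above all SHP2i tumors. The log2 fold change in Combo was 0.59 (SE 0.15, adjusted p = 0.00477) against Vehicle and 0.85 (SE 0.16, adjusted p = 0.00163) against SHP2i. Without Combo replicates 4 and 5 these were 0.32 (adjusted p = 0.0911) and 0.60 (adjusted p = 0.0212). The difference from Vehicle was 0.22 with the neutrophil covariate (adjusted p = 0.489) and 0.13 with the macrophage covariate (adjusted p = 0.775). The PI3Ki difference from Vehicle was 0.44 (95% interval 0.11 to 0.77, adjusted p = 0.126) and the SHP2i difference -0.26 (95% interval -0.60 to 0.07, adjusted p = 0.286). SHP2i and PI3Ki differed from each other by -0.70 (SE 0.17, adjusted p = 0.00659).

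Pmaip1 was the member that fell furthest. Vehicle tumors held 7.43, 7.86, 7.63, 7.18 and 6.85 CPM and PI3Ki tumors 8.82, 8.94, 7.83 and 5.5 CPM. SHP2i tumors held 3.34, 3.24, 4.33 and 4.74 CPM and Combo tumors 2.67, 2.77, 4.24, 4.15 and 1.73 CPM. As with Mcl1, every tumor given the SHP2 inhibitor lay below every tumor that was not. The log2 fold change from Vehicle was -0.92 (SE 0.22, adjusted p = 0.0143) in SHP2i and -1.25 (SE 0.21, adjusted p = 0.000192) in Combo, and Combo differed from SHP2i by -0.33 (95% interval -0.80 to 0.14, adjusted p = 0.306). The PI3Ki difference was 0.07 (95% interval -0.38 to 0.53). With the macrophage covariate the differences were -0.54 in SHP2i (adjusted p = 0.191) and -0.63 in Combo (adjusted p = 0.264). With the B and plasma cell covariate the SHP2i difference was -0.77 (adjusted p = 0.0878).

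Bbc3 and Bad, the remaining BH3-only genes, were not called against Vehicle in any treatment. Bbc3 held 9.23, 9.39, 10.1, 9.76 and 5.19 CPM in Vehicle and 11.4, 11.8, 10.1 and 14.2 CPM in PI3Ki. The lowest PI3Ki tumor was barely above the highest Vehicle tumor, and the difference was 0.44 (95% interval 0.09 to 0.80, adjusted p = 0.148). SHP2i tumors held 7.28 to 9.0 CPM and Combo tumors 8.71 to 12.4 CPM. The Bbc3 differences from Vehicle were -0.11 (95% interval -0.47 to 0.25) in SHP2i and 0.20 (95% interval -0.13 to 0.54) in Combo. Bad, the sensitizer whose protein AKT phosphorylates, ran from 26.2 to 42.8 CPM over all tumors. Its differences from Vehicle were -0.10 (95% interval -0.33 to 0.12) in PI3Ki, -0.25 (95% interval -0.48 to -0.02, adjusted p = 0.133) in SHP2i and -0.18 (95% interval -0.40 to 0.03) in Combo. Bad shares its locus with Gpr137 on the opposite strand.

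Both effector genes were lower in Combo. Bak1 held 95.5, 105, 89.6, 112 and 104 CPM in Vehicle, 80.2, 94.2, 87.7 and 78.6 CPM in PI3Ki and 78.7, 87.6, 84.1 and 85.3 CPM in SHP2i. The Combo tumors held 74.8, 66.4, 62.0, 64.1 and 51.9 CPM. All 5 Combo tumors lay below all tumors of the other groups, and 3 of the 4 PI3Ki tumors and all SHP2i tumors lay below all Vehicle tumors. The log2 fold change in Combo was -0.66 against Vehicle (SE 0.087, adjusted p = 1.79e-05), -0.42 against PI3Ki (SE 0.091, adjusted p = 0.00198) and -0.39 against SHP2i (SE 0.091, adjusted p = 0.00618). In PI3Ki and SHP2i the differences from Vehicle were alike in size, -0.25 (adjusted p = 0.134) and -0.27 (adjusted p = 0.0648), and neither passed. The Combo difference was -0.60 without Combo replicates 4 and 5 (adjusted p = 0.000123) and -0.45 with the macrophage covariate (adjusted p = 0.0706). Bak1 overlaps Ggnbp1 on the opposite strand.

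Bax held 70.8, 78.4, 62.5, 60.4 and 52.6 CPM in Vehicle, 66.0, 79.8, 57.1 and 65.6 CPM in PI3Ki and 60.1, 55.5, 55.6 and 53.8 CPM in SHP2i. Combo tumors held 56.1, 49.0, 43.5, 47.2 and 47.6 CPM. All Combo tumors lay below all PI3Ki tumors, and 1 Combo tumor lay above the lowest Vehicle tumor. The log2 fold change was -0.42 against Vehicle (SE 0.10, adjusted p = 0.00395) and -0.46 against PI3Ki (SE 0.11, adjusted p = 0.00329). Against SHP2i it was -0.21 (95% interval -0.44 to 0.02, adjusted p = 0.183). The Combo difference from Vehicle stayed at -0.42 with the macrophage covariate, where the call was lost (adjusted p = 0.178), and was -0.16 with the neutrophil covariate (adjusted p = 0.453). A predicted protein-coding gene, Gm45808, lies over Bax on the same strand and can share its reads.

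The treated groups were then compared with each other. Against PI3Ki, Combo was lower in Mcl1 (log2 fold change -0.68, adjusted p = 0.000285), Pmaip1 (-1.32, adjusted p = 0.000244), Bax and Bak1, where 37.7% of all genes were called and 17.8% were lower. No member was higher than in PI3Ki in edgeR, while Bcl2, Bcl2l1 and Bmf had positive differences with an unadjusted p under 0.05, which 7139 of the 15282 genes had in either direction. Against SHP2i, Combo was higher in Bcl2, Bcl2l11 and Bmf and lower in Bak1, with 22.1% of all genes called, 11.8% higher and 10.3% lower. Between the inhibitors, SHP2i was lower than PI3Ki in 5 members and higher in none (24.5% of all genes, 12.8% lower). These were Mcl1 (-0.73, adjusted p = 0.000625) and the BH3-only genes Bcl2l11, Bbc3 (-0.55, adjusted p = 0.0327), Bmf (-0.90, adjusted p = 0.0148) and Pmaip1 (-0.99, adjusted p = 0.00603). With the limit on fold change, Pmaip1 was called between Combo and PI3Ki (11.1% of all genes), Bmf between Combo and SHP2i (4.57%) and no member between SHP2i and PI3Ki (6.63%). The call of Bbc3 was lost when PI3Ki replicate 1, 2 or 5 or SHP2i replicate 2 or 5 was left out, with adjusted p up to 0.0898. The skeletal muscle markers that mark off PI3Ki stand in all comparisons with that group, and with their mean as a covariate no member was called in any of them. The Combo differences from PI3Ki were then -0.46 for Mcl1, -0.92 for Pmaip1, -0.67 for Bax and -0.49 for Bak1 (adjusted p of 0.352 to 0.493). The SHP2i differences from PI3Ki ran from -0.48 for Mcl1 to -1.12 for Bmf over the 5 genes (adjusted p of 0.367 to 0.728). In the same fits 7 genes of all those tested were called between Combo and PI3Ki and 0 between SHP2i and PI3Ki, and 0 between PI3Ki and Vehicle. The muscle list and the group therefore cannot be told apart.

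Whether the combination departed from the sum of its parts was tested as an interaction on the log2 scale. No member passed in edgeR, where 2.47% of all genes did, and Bcl2 alone had an unadjusted p under 0.05 (0.64, 95% interval 0.08 to 1.19, unadjusted p = 0.027, adjusted p = 0.204). For Bmf the interaction was 0.67 (95% interval -0.03 to 1.37), for Bcl2l11 0.41 (-0.06 to 0.89) and for Bcl2l1 0.34 (-0.06 to 0.75). For Mcl1 it was -0.16 (-0.51 to 0.19) and for Pmaip1 -0.40 (-1.06 to 0.26). Each of these intervals other than that of Bcl2 holds 0.

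Ordered by mean level, few neighbouring groups were separated at an adjusted p under 0.05. For Mcl1 the order was PI3Ki, Vehicle, Combo, SHP2i, with the step from Vehicle to Combo separated. For Pmaip1 it was PI3Ki, Vehicle, SHP2i, Combo, with the step from Vehicle to SHP2i separated. For Bak1 it was Vehicle, PI3Ki, SHP2i, Combo, with the step from SHP2i to Combo separated. Bcl2, Bcl2l1, Bcl2l11 and Bmf shared the order Combo, PI3Ki, Vehicle, SHP2i, and no neighbouring step passed for any of them. No step passed for Bax, Bad or Bbc3 either.

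**Figure D3:**
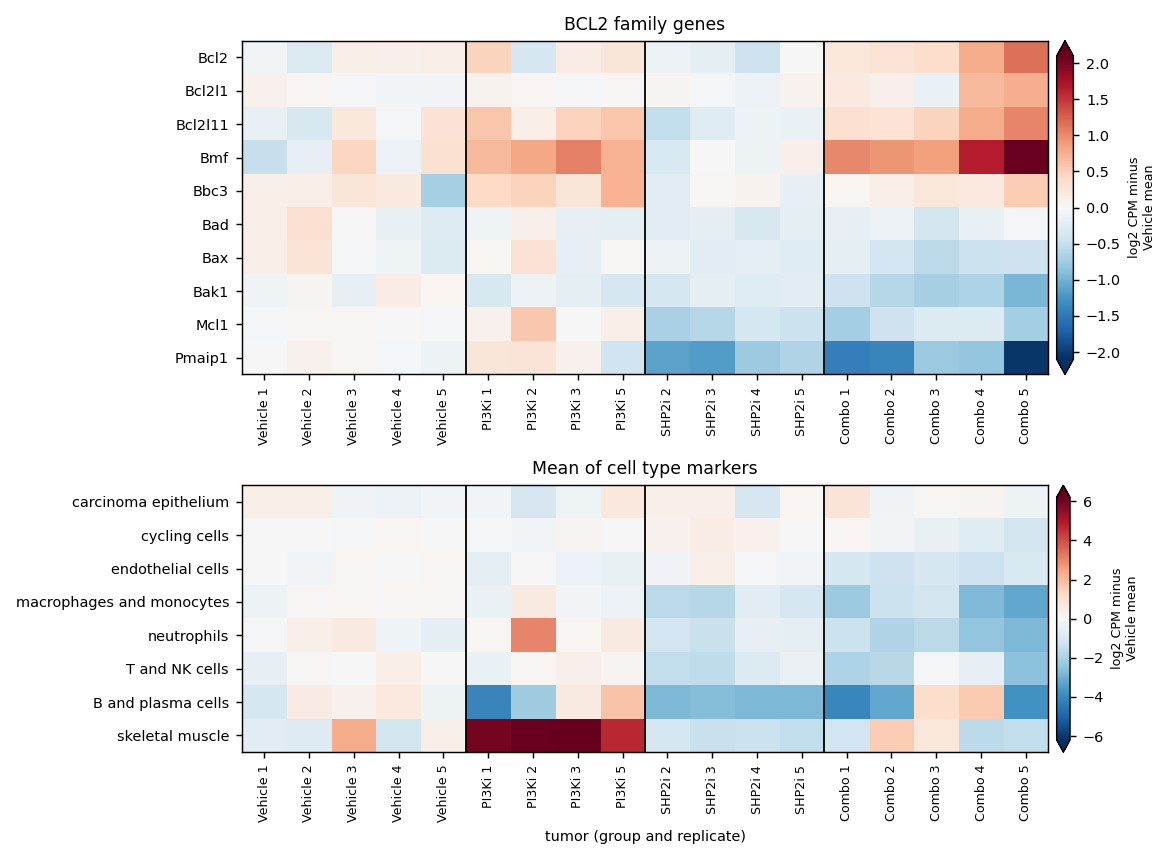
Log2 CPM minus the Vehicle mean in each of the 18 tumors (columns), for the 10 genes (upper panel) and for the mean of each cell type marker list (lower panel), with red above and blue below the Vehicle mean and a separate color scale per panel. Combo 4 and 5 are the deepest red for Bcl2, Bcl2l1, Bcl2l11 and Bmf and the deepest blue for macrophage and neutrophil markers, and all 4 PI3Ki tumors are dark red for skeletal muscle.

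Ratios between members within a tumor do not depend on the library scaling and are given as descriptions. Bcl2 to Bax and Bcl2l11 to Mcl1 each set a member called higher in Combo over a member called lower there. A higher ratio in Combo therefore restates those calls. The Bcl2 to Bax ratio of CPM was 0.987 ± 0.256 in Vehicle (SD, n = 5), 1.06 ± 0.309 in PI3Ki (n = 4) and 0.970 ± 0.135 in SHP2i (n = 4). In Combo it was 1.28, 1.55, 1.83, 2.23 and 2.90 over the 5 tumors, of which the lowest was within the range of Vehicle, whose highest was 1.29. The Bcl2l11 to Mcl1 ratio was 0.198 ± 0.0384 in Vehicle, 0.240 ± 0.0633 in PI3Ki and 0.236 ± 0.0127 in SHP2i. The 5 Combo tumors had 0.403, 0.320, 0.328, 0.409 and 0.646, all above the highest value of the other groups, 0.274. The Pmaip1 to Mcl1 ratio was 0.0237 ± 0.000753 in Vehicle, 0.0219 ± 0.00491 in PI3Ki, 0.0180 ± 0.00213 in SHP2i and 0.0136 ± 0.00315 in Combo. The highest values in SHP2i and Combo, 0.0209 and 0.0167, were below the lowest Vehicle value, 0.0227. The PI3Ki tumors ran from 0.0162 to 0.0267 and overlapped all the other groups. In both groups given the SHP2 inhibitor, Pmaip1 was thus lower relative to Mcl1 than in Vehicle.

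Of the other BCL2 family genes, 11 of 16 listed were tested. Bnip3l and Bnip3, which encode BH3-only-like mitophagy receptors, were higher in Combo, Bnip3l at 309 against 168 CPM (log2 fold change 0.88, adjusted p = 6.5e-07) and Bnip3 at 233 against 115 CPM (1.03, adjusted p = 0.000141). Bnip3l was also higher in SHP2i (0.28, adjusted p = 0.0398). Bid, the BH3-only gene that links death receptors to mitochondria, was lower in PI3Ki (-0.44, adjusted p = 0.0014) and in Combo (-0.18, adjusted p = 0.0404). Bcl2a1b, a pro-survival gene of blood cells, fell from 47.3 CPM in Vehicle to 14.4 in SHP2i (-1.72, adjusted p = 0.000219) and 7.66 in Combo (-2.63, adjusted p = 3.02e-07). Its count is uncertain, since near-identical copies of this gene share reads, and the macrophage markers given above were lower in the same groups. Bcl2l12 (-0.40, adjusted p = 0.00453) and the scarce Bcl2l14 (-1.18, 0.370 against 0.849 CPM, adjusted p = 0.00915) were lower in Combo.

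For the counts that follow, 43.6% of all genes tested were called between Combo and Vehicle, 23.9% higher and 19.7% lower. Downstream of the mitochondrion, the caspase and apoptosome list had 1 of 6 genes higher and 2 lower in Combo. Cycs, which encodes cytochrome c, was lower (-0.61, adjusted p = 0.00142), as was Casp8, the initiator of the death receptor pathway (-0.28, adjusted p = 0.00198), while Casp6 was higher (0.21, adjusted p = 0.0343). Casp6 was also higher in PI3Ki (0.29, adjusted p = 0.0439). Of 7 IAP genes and antagonists, which restrain or free caspases, 3 were higher in Combo and 1 lower. Birc2 (0.31, adjusted p = 0.00497), Xiap (0.38, adjusted p = 0.00617) and Birc6 (0.53, adjusted p = 0.0178) were higher. Birc5 (survivin), which is also a gene of mitosis, was lower (-0.61, adjusted p = 0.0198) beside 4 of 9 cycling cell markers that were lower in Combo. Among 9 death receptor genes and adaptors, Cflar, the inhibitor of caspase-8 activation, was higher (0.43, adjusted p = 0.00362) and Fasl (-1.21, adjusted p = 0.00485), Tnfsf10 (-0.69, adjusted p = 0.0114) and Ripk1 (-0.22, adjusted p = 0.0411) were lower, beside 6 of 14 T and NK cell markers that were lower.

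Genes that control the members were read in the same way, beside the same 43.6% of all genes called in Combo. Of 8 tested genes for the turnover of the MCL1 and BIM proteins, 4 were higher in Combo and 1 lower. The higher ones included the ubiquitin ligase genes Huwe1 (0.71, adjusted p = 0.00381) and Fbxw7 (0.43, adjusted p = 0.000115), both known to act on MCL1, and Cul3 (0.30, adjusted p = 0.00232). The remaining one, Usp9x (0.53, adjusted p = 0.00405), encodes a deubiquitinase known to stabilize MCL1, and was named after its value was seen. Ube2c, an E2 enzyme of mitosis, was lower (-0.74, adjusted p = 0.00397). Of 5 genes for VDAC channels and mitochondrial carriers, Vdac2, whose protein binds BAK, was lower in Combo (-0.29, adjusted p = 0.00444) and none was higher. Of 9 transcription factors of BH3-only genes, 2 were higher and 2 lower in Combo. Foxo3 rose in Combo from 55.7 to 117 CPM (1.07, adjusted p = 1.88e-05) and Foxo4 from 26.0 to 39.4 CPM (0.60, adjusted p = 0.000491). Trp53 was lower in Combo (-0.55, adjusted p = 7.44e-06), and Myc was lower in PI3Ki (-0.53, adjusted p = 0.00456). Of 16 p53 targets outside the members, 3 were higher and 6 lower in Combo. Cdkn1a (-0.93, adjusted p = 0.00153), Aen (-0.62, adjusted p = 0.00045) and Sesn2 (-0.57, adjusted p = 0.00378) were lower and Trp53inp1 was higher (1.13, adjusted p = 0.00168). Aen was also lower in PI3Ki (-0.76, adjusted p = 0.00131), and Trp53inp1 was also higher there (0.93, adjusted p = 0.0466).

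Over all these lists, 71 of 77 genes were tested. In Combo 16 were higher and 20 lower, with a median difference of -0.08 beside 0.02 for all genes, of which 43.6% were called. In PI3Ki 2 were higher and 3 lower (5.11% of all genes), and in SHP2i 1 was higher and 1 lower (11.6%). The lists were chosen with results of these data known, and the counts are descriptions. Without Combo replicates 4 and 5, 13 were higher and 13 lower in Combo, among them 12 of the 16 and 12 of the 20, and of the genes named here Bid, Casp6, Xiap, Birc5, Tnfsf10 and Ripk1 no longer passed. With the macrophage covariate 2 were higher (Bnip3 and Bnip3l) and 4 lower (Bcl2a1b, Casp8, Trp53 and Aen).

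**Figure D4:**
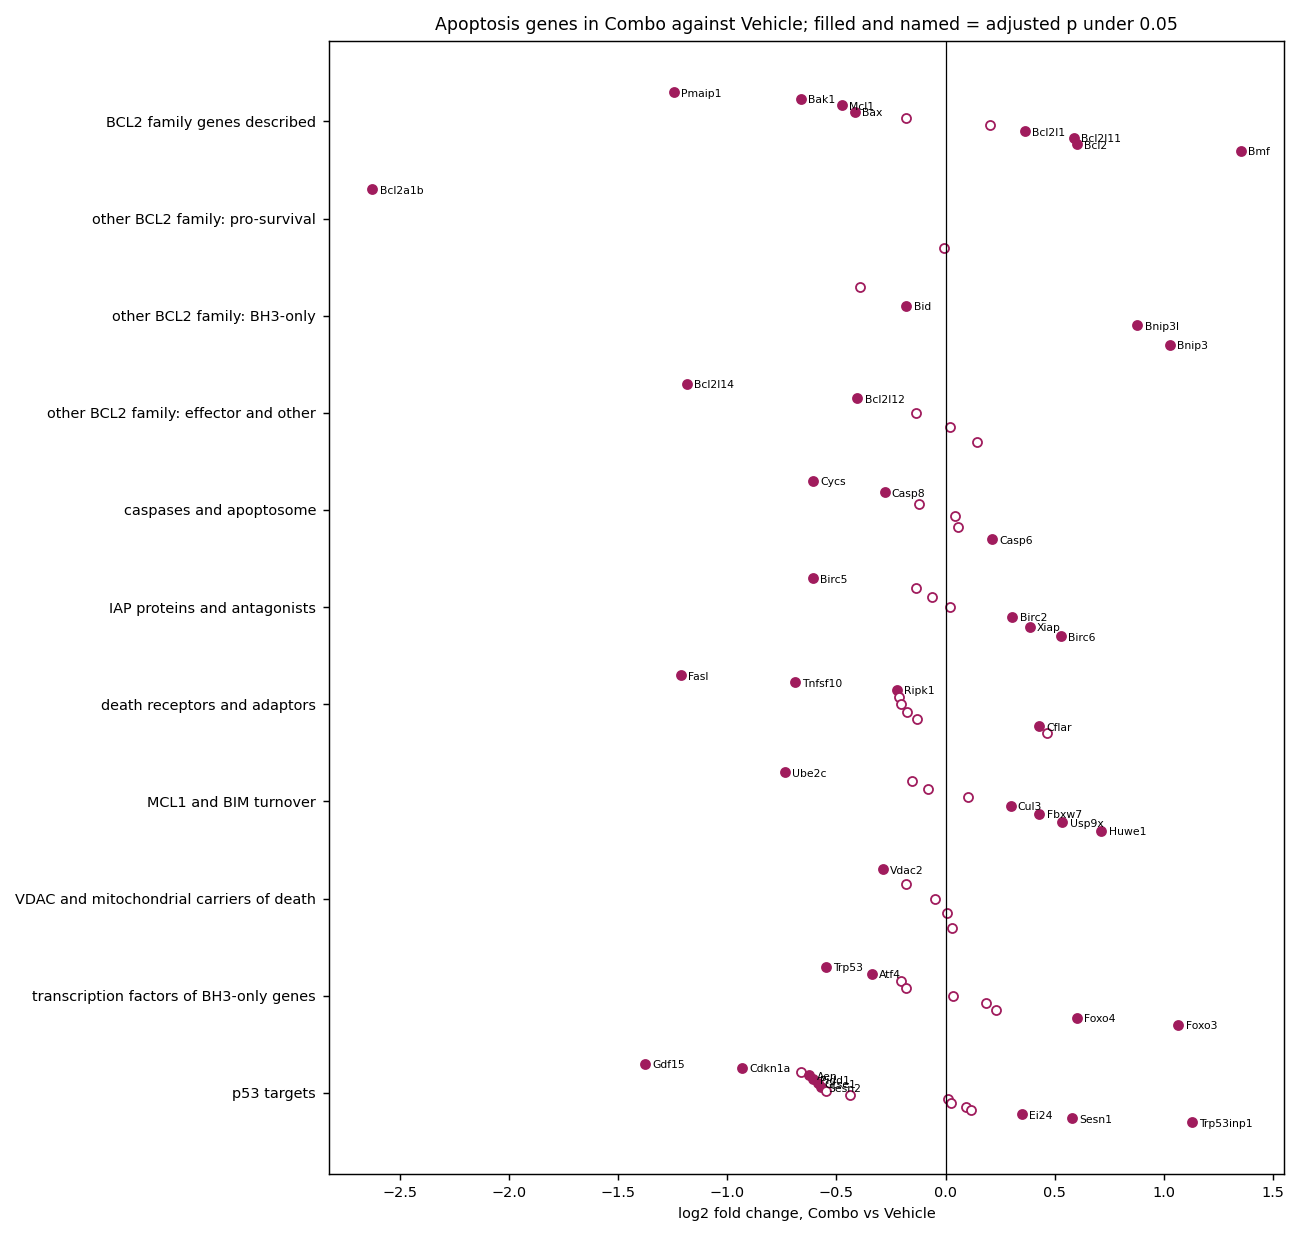
Log2 fold change of Combo against Vehicle (x axis) for the 10 genes and for 71 other genes of apoptosis, 1 point per gene, arranged by list (y axis). Filled, named points passed an adjusted p of 0.05, which was the case for 4 higher and 4 lower of the 10 genes and for 16 higher and 20 lower of the 71.

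The genes with the most similar course over the 18 tumors were found by the mean absolute difference between log2 CPM profiles, each centred on its own mean. Bmf lay closest to Fbxo32 (0.155), which encodes the ubiquitin ligase atrogin-1, then to Klhl24 (0.183) and Crebrf (0.186). The median over all genes was 0.601. Bcl2l11 lay closest to Sfxn3 (0.0938), Narf (0.111) and Hbp1 (0.126), Mcl1 to Snx2 (0.0887), Sdcbp (0.0917) and Nucb2 (0.0947), and Pmaip1 to Plekho1 (0.160), Fxyd5 (0.174) and Cxcl16 (0.181). Bcl2 lay closest to 2610008E11Rik (0.136), Scaper (0.139) and Snapin (0.140), and Bcl2l1 to Mpg (0.0794), Preb (0.0811) and Zranb1 (0.0879). Bax lay closest to Pagr1a (0.0551), Ube2m (0.0690) and Pih1d1 (0.0712). For Bak1 the closest was Ggnbp1 (0.0532), which overlaps it and may share its reads, followed by Lap3 (0.0600). The nearness is a description over these tumors, which share group, depth and cell makeup.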

How the data were processed

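RNA of 18 frozen 4T1 tumors was measured. The authors isolated mRNA by its poly(A) tail, prepared strand-marking libraries and read 75-base pairs. Adapters were removed by cutadapt, 2-pass STAR placed the reads on GRCm38, and qCount (QuasR) tallied them by gene. The authors deposited these tallies as raw counts per Entrez gene, in whole numbers and without normalization. Annotation, tool versions and the strand setting are not given in the sources used here, and the labels also name hg19. Total counts were 21.2 to 26.6 M per tumor.

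Counts were fitted with edgeR 4.0.16 (R 4.3.3) after filterByExpr (minimum count 10, minimum total 15), with TMM scaling and 1 mean per group over all tumors. The quasi-likelihood F test was adjusted by Benjamini-Hochberg over 15282 genes, and 95% intervals and SE come from the same fit. Levels per kb used merged exons of GENCODE M21. limma 3.58.1, DESeq2 1.42.0, other scalings and filters, covariates, blocks and leaving out each tumor were alternatives.

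All 10 members were named. Of the other apoptosis lists, genes were named at an adjusted p under 0.05 in a comparison with Vehicle, at most 4 per list by smallest p. For each member called against Vehicle, the 3 genes of nearest profile were named. Some genes of the caspase list, left out of its counts, and a gene near Bak1 are not reported here. Members and lists were chosen with earlier results of these data known. The study counts animals as replicates, and p-values set differences between group means against the spread between these tumors. PI3Ki replicate 4 and SHP2i replicate 1 are not analysed here. Samples sharing a replicate number did not deviate together, and the main fit has no block.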

Additional observations from a re-analysis of the deposited data

Results flagged for a closer look

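The Bbc3 level of Vehicle replicate 5, 5.19 CPM, lay far below the other Vehicle tumors, of which the nearest held 9.23 CPM. The gap was 0.821 of the range of the group, above Dixon's critical value for 5 samples. It was the only such value among 40 combinations of gene and group, and chance flags about 1 in 20. Without this tumor the PI3Ki difference in Bbc3 was the smallest of those with 1 tumor left out, 0.30 on the log2 scale, and Bbc3 was not called against Vehicle with or without it.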

How the results depend on the processing

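Groups held 4 or 5 tumors, and the lowest counts were those of Pmaip1. Of the 23 called differences of members, 21 kept their direction and their call at the adjusted p alone under every planned scaling, filter, tool, test, sample choice and block and with each tumor left out in turn. The exceptions were Bcl2l1 between Combo and Vehicle and Bbc3 between SHP2i and PI3Ki, whose 10 losses were the only ones among 414 called values with 1 tumor left out. Causes were not tested.

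Against Vehicle, PI3Ki had 0 members higher, and 1 (Bmf) with upper quartile scaling, DESeq2, the likelihood ratio test, only the groups compared, the macrophage covariate or Combo replicates 4 and 5 left out together, and 2 (Bmf and Bcl2l11) with the neutrophil covariate. The limit on fold change left 0 of 2 lower in SHP2i, 1 of 4 higher and 1 of 4 lower in Combo, 1 of 4 lower in Combo against PI3Ki, 1 of 3 higher and 0 of 1 lower in Combo against SHP2i and 0 of 5 lower in SHP2i against PI3Ki. The B and plasma cell covariate left 0 lower in SHP2i. The neutrophil covariate left 1 higher and 2 lower in Combo, 0 lower in Combo against PI3Ki, and 3 lower in SHP2i against PI3Ki, of which Bcl2l11 and Bmf were among the 5 called without it and Bcl2 was not. The macrophage covariate, chosen after the data had been seen, left 0 higher and 0 lower in Combo, 0 lower in Combo against PI3Ki and 0 lower in Combo against SHP2i. It left 2 lower in SHP2i, but these were Bcl2 and Bcl2l1 in place of Mcl1 and Pmaip1, and in SHP2i against PI3Ki it added the same pair and lost Pmaip1. The muscle covariate left 0 lower in Combo against PI3Ki and 0 lower in SHP2i against PI3Ki. Leaving out Combo replicates 4 and 5 together, also chosen after the data had been seen, left 1 higher in Combo (Bmf). With 1 tumor left out, the number higher was 0 to 1 in PI3Ki and 0 to 3 in Combo against PI3Ki.

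Of called differences, the sign changed for Bcl2 in Combo against Vehicle, to -0.0031 with the neutrophil and -0.21 with the macrophage covariate, and for Bcl2l1, to -0.31 with the macrophage covariate. The other 37 sign changes were of differences that were not called. Without scaling beyond the total count they were Bcl2l1 (-0.019) and Bax (-0.0034) in PI3Ki, Bcl2l1 in SHP2i (0.0017), Mcl1 in Combo against SHP2i (-0.017), and Bcl2l1 (0.021) and Bak1 (0.033) in SHP2i against PI3Ki. With the muscle covariate they were Pmaip1 (-0.30) and Bad (0.052) in PI3Ki, Bcl2 (-0.0015), Bcl2l1 (-0.33) and Bcl2l11 (-0.050) in Combo against PI3Ki, and the interactions of Bcl2l1 (-0.18) and Mcl1 (0.011). With the neutrophil covariate they were Pmaip1 (-0.059) and Bax (-0.077) in PI3Ki, Bcl2 (-0.41), Bcl2l11 (-0.37) and Bad (0.13) in Combo against PI3Ki, Bak1 in SHP2i against PI3Ki (0.11), and the interactions of Mcl1 (0.17), Bax (0.0043) and Bak1 (0.00085). With the macrophage covariate they were Bcl2 (-0.31), Bcl2l1 (-0.32), Bcl2l11 (-0.28) and Bmf (-0.18) in Combo against PI3Ki and Bak1 in SHP2i against PI3Ki (0.10). Without Combo replicates 4 and 5 it was Bcl2l11 in Combo against PI3Ki (-0.12). With 1 tumor left out, the ranges were -0.043 to 0.13 for Bax in PI3Ki, -0.048 to 0.016 for Bcl2l1 in SHP2i, -0.23 to 0.014 for Bmf in SHP2i, -0.0073 to 0.10 for Mcl1 in Combo against SHP2i, -0.071 to 0.017 for Bak1 in SHP2i against PI3Ki and -0.22 to 0.0089 for the interaction of Bbc3.

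Replicate numbers are shared between groups, and the labels do not say what they mark. Same-numbered tumors deviated together with r of -0.42 to 0.33 over 24 pairs (median 0.018), and 4 of 18 tumors correlated best with one of their own number. With the replicate block, 2 members were called higher in PI3Ki against Vehicle (Bmf and Bcl2l11), Bcl2l1 in Combo against Vehicle (adjusted p = 0.0519) and Bbc3 in SHP2i against PI3Ki (adjusted p = 0.0588) lost their calls in edgeR, and the other calls of members stayed.

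Of all genes, DESeq2 called 1245 in PI3Ki against 781 in edgeR and 766 for the interaction against 378, where the likelihood ratio test called 643 and the block 200. With only the groups compared, 3192 were called in SHP2i against 1772, and 2212 in Combo against SHP2i, where 3375 were called in the fit over all groups and 1477 without Combo replicates 4 and 5. Without scaling beyond the total count, the share of calls that were higher went from 52.6% to 37.8% in PI3Ki, from 53.3% to 37.2% in Combo against SHP2i and from 47.6% to 58.1% in SHP2i against PI3Ki. In edgeR the muscle covariate left 0 of 781 in PI3Ki (1305 at an unadjusted p under 0.05), 7 of 5756 in Combo against PI3Ki, 0 of 3738 in SHP2i against PI3Ki (2080 unadjusted) and 0 interactions (594 unadjusted). With the macrophage covariate 1275 were called in PI3Ki, 1785 in Combo (6657 without a covariate), 1004 in Combo against PI3Ki, 1678 in Combo against SHP2i and 190 for the interaction. With the neutrophil covariate 2394 were called in Combo, 439 in Combo against PI3Ki, 1833 in Combo against SHP2i, 1245 in SHP2i against PI3Ki and 21 for the interaction. The B and plasma cell covariate left 751 in SHP2i and 196 for the interaction, and 111 interactions passed without Combo replicates 4 and 5.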
